A study of Mus musculus with 6 samples.

Results

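The 9 enzymes described here make serine or move its one-carbon unit through folate: Phgdh, Psat1 and Psph of serine synthesis, Shmt1 and Mthfd1 of the cytosolic folate branch, and Shmt2, Mthfd2, Mthfd1l and Aldh1l2 of the mitochondrial branch. They were taken by gene name from the 11866 genes in the deposited table, where all 9 are present, and all 9 passed the filter on low values. The list was drawn up with earlier results of the same comparison known, among them those of Shmt2, Aldh1l2 and Psat1, so the values below describe these enzymes and their adjusted p-values only place each gene within the fit across all genes.

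RNA-seq was done on HCC3-4 cells, a mouse liver cancer line established from MYC transgenic mice. The 3 KD libraries come from cells carrying a stable short hairpin against Sf3b3 (shSf3b3) and the 3 PLKO libraries from cells carrying the empty control construct pLKO.1-TRC. The sources used here name 1 hairpin and no rescue, and do not say whether a population is 1 clone or whether libraries of a group are separate cultures. The p-values therefore reflect library-to-library spread, part of which may be technical. In bulk RNA, fewer cells of a type and less RNA per cell cannot be told apart. Other effects of the hairpin cannot be told apart from those of lower Sf3b3.

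Serine is made from a glycolytic intermediate by PHGDH, PSAT1 and PSPH in turn. Serine hydroxymethyltransferases (SHMT1 in the cytosol, SHMT2 in mitochondria) then split it into glycine and a one-carbon unit on tetrahydrofolate. In mitochondria MTHFD2 oxidises that unit, MTHFD1L releases it as formate and ALDH1L2 can burn it to carbon dioxide while making NADPH. In the cytosol MTHFD1 takes up formate and feeds purine and thymidylate synthesis. Proliferating tumour cells usually draw their formate from the mitochondrial branch, and the stress factor ATF4 and MYC are known to drive several of these genes.

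The pairs that span the compartments, Shmt2 with Shmt1 and Mthfd1l with Mthfd1, carry the main contrast below, and their upstream sequences are shown to set the partners side by side. Each is the 250 bases before the RefSeq start on GRCm38.p6, read on the strand of the gene, with the letters CCAAT in capitals, or their complement ATTGG where the match is on the other strand. Shmt2 covers chr10:127522445-127522694 (minus strand), Shmt1 chr11:60811266-60811515 (minus strand), Mthfd1l chr10:3972825-3973074 (plus strand) and Mthfd1 chr12:76254982-76255231 (plus strand).
Shmt2: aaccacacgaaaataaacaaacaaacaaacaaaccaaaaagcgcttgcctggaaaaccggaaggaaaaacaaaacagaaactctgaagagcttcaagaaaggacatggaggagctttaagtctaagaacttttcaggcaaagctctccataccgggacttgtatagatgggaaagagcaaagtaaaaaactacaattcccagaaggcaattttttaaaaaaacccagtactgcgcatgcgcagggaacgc
Shmt1: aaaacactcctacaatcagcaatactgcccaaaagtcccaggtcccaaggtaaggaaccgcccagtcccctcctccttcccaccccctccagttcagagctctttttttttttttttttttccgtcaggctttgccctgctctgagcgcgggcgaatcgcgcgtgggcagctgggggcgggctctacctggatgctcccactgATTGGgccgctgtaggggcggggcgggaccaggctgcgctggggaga
Mthfd1l: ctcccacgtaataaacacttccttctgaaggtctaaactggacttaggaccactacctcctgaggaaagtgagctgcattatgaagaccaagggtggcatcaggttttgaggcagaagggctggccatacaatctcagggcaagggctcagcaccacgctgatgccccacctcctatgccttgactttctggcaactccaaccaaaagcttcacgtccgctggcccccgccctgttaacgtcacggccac
Mthfd1: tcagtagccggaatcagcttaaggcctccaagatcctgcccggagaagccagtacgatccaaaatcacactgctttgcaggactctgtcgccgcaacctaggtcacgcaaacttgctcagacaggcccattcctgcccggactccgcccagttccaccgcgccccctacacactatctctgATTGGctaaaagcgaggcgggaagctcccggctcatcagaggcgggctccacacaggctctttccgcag
In these pairs the cytosolic partners hold 1 CCAAT each and the mitochondrial partners none. The mitochondrial gene Mthfd2, outside these pairs, holds 3, and CCAAT was chosen after the windows had been seen, so no compartment difference is read from this. The Shmt2 stretch is 40.8% G and C, against 60.0% for Shmt1, 54.4% for Mthfd1l and 59.2% for Mthfd1.

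RefSeq windows were found for 8 of the 9 genes (9 windows, with 2 for Psat1). Those of Shmt1, Mthfd2 and Psat1 lie inside the GENCODE M21 gene spans given below, in which the gene starts further upstream. Psph and Phgdh also start further upstream there, so most of the Psph window and a smaller part of the Phgdh window lie inside the span. Sequence before the GENCODE starts was not searched for Shmt1, Mthfd2 and Psat1, and only a short stretch of it was for Psph. The letters TGATGCAAT, an element bound by ATF4 with C/EBP partners, TGATGNAA, its core, and CACGTG, an E-box read by MYC, were searched on both strands, and TGATGCAAT also with up to 1 base changed after TGATG. The 1-base search includes exact matches and overlaps the core. None of the 9 windows held any of them, while all 32851 windows held them in 0.167%, 3.45%, 6.02% and, with the changed base, 2.12% of cases. CCAAT, searched after the windows had been seen, stood in 6 of the 9 windows (Phgdh, Psph, Mthfd2, Shmt1, Mthfd1 and 1 of Psat1), against 33.8% of all windows. The GC box GGGCGG, also added then, stood in 5 of the 9, against 32.7%. These are matches of letters in short windows and say nothing of binding.

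Long identical stretches could let reads of one partner be counted for the other, so the longest ones are shown. The longest stretch that any coding transcript of Shmt2 shares letter for letter with one of Shmt1 has 19 bases.
Shmt2 and Shmt1: cccaagactggcaaagaga
Mthfd1l and Mthfd1: ggaacgatgagcacaatgcc
The stretch shared by Mthfd1l and Mthfd1 has 20 bases, and Mthfd2 shares at most 14 with Mthfd1.

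Between 15140441 and 17566101 reads per library fell on the listed genes. Sf3b3 itself stood at 10.3, 9.56 and 13.9 FPKM in KD 1, 2 and 3, against 22.6, 28.7 and 29.2 FPKM in PLKO 1, 2 and 3 (log2 difference -1.26, SE 0.23, limma adjusted p = 0.037). FPKM corrects fragments for gene length and depth, so levels can be compared between genes. Library 3 stood apart: deviations from the group means correlated at 0.50 over genes between KD 3 and PLKO 3, and at -0.43 to -0.28 between either of them and libraries 1 and 2 of the other group. Of 7 hepatocyte markers 1 was listed, Afp, with a mean of 0.896 FPKM over the 6 libraries, below the filter of 1 FPKM, so the liver label rests on the origin of the line. Of 5 fibroblast or stellate markers all were listed and summed to 40.0 to 67.3 FPKM in KD and 95 to 145 FPKM in PLKO, mostly Col3a1 and Pdgfrb. Of 5 leukocyte markers 2 were listed, Cd68 and Cd79a, which summed to 46.9 to 98.9 FPKM in KD and 10.1 to 42.2 FPKM in PLKO, while Ptprc, the defining one, was not among the listed genes. Of 4 cholangiocyte markers 2 were listed (63.2 to 70.6 FPKM in KD, 54.1 to 80.7 FPKM in PLKO), and of 4 endothelial markers none. The part of these marker shifts in the results below was not tested.

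All 9 enzymes had lower mean levels in KD than in PLKO. Shmt2, Aldh1l2 and Psph fell, Mthfd1 and Psat1 missed the threshold but passed it with the replicate number as a block, and Phgdh, Shmt1, Mthfd2 and Mthfd1l did not pass it in either fit. The fit called 314 of 10770 tested genes (2.92%), 1.79% lower and 1.12% higher, and with the block 19.3% (11.1% lower, 8.19% higher). Against these shares stand 3 of 9 enzymes called lower, and 5 of 9 with the block, with none higher. The median log2 difference of the 9 was -0.67, against -0.04 over all tested genes, of which 52.3% were below 0. The libraries of KD all lay below those of PLKO for 6 of the 9 (Phgdh, Psat1, Psph, Mthfd1, Shmt2 and Aldh1l2) and for 18.8% of all tested genes. Because the list was drawn with this comparison known, nothing is read from these counts. No enzyme was called without PLKO 1, PLKO 2, KD 1 or KD 2 (limma, adjusted p 0.12 or more for each of the 9), where 0 genes were called in all, against 2217, 2315, 1818 and 1793 genes at an unadjusted p under 0.05.

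**Figure D1:**
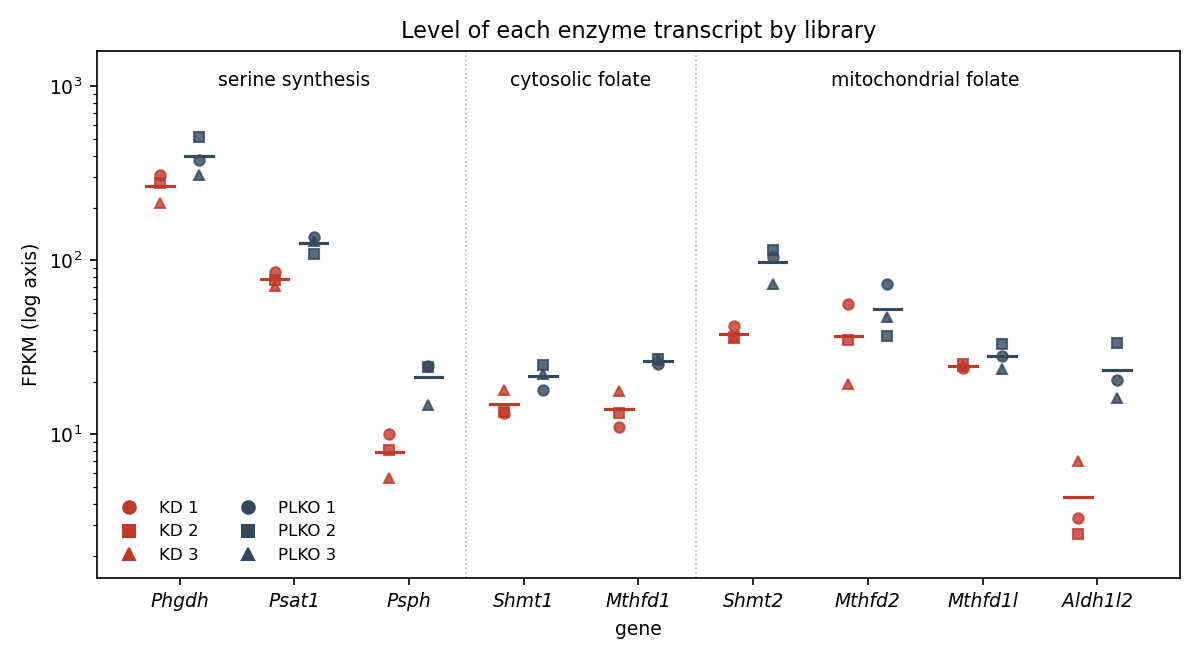
FPKM (log axis) of the 9 enzyme transcripts in each library, with KD in red left of PLKO in dark blue; symbols give the library number and bars the mean of 3 libraries. Phgdh is the highest at a mean of 266 FPKM in KD and 398 FPKM in PLKO, and the groups do not overlap for Aldh1l2, Shmt2, Mthfd1, Psph, Psat1 and Phgdh.

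Phgdh, which takes 3-phosphoglycerate into serine synthesis, was the most abundant of the 9. It had 308, 277 and 214 FPKM in KD 1, 2 and 3, against 376, 511 and 308 FPKM in PLKO 1, 2 and 3. KD 1 and PLKO 3 nearly touched, and the log2 difference of -0.57 (SE 0.25, 95% interval -1.13 to -0.01) missed the threshold (limma adjusted p = 0.18, 0.089 with the block). Its depth was 9327 to 11822 reads in KD and 12117 to 21236 in PLKO. The gene lies on chromosome 3 from 98313170 to 98339990 (13 exon blocks).

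Psat1, the transaminase of the next step, was tight within each group. It had 86.0, 77.1 and 71.6 FPKM in KD 1, 2 and 3, against 136, 109 and 130 FPKM in PLKO 1, 2 and 3. The groups stood clear of each other, with a log2 difference of -0.67 (SE 0.19, limma adjusted p = 0.075, 0.045 with the block). The gene lies on chromosome 19 from 15904678 to 15947337.

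Psph, the phosphatase that releases free serine, fell the most of the serine synthesis genes. It had 10.1, 8.12 and 5.62 FPKM in KD 1, 2 and 3, against 24.6, 24.5 and 14.7 FPKM in PLKO 1, 2 and 3. Both libraries numbered 3 were the lowest of their group, and even PLKO 3 lay above every KD library. The log2 difference was -1.42 (SE 0.30, 95% interval -2.09 to -0.75, limma adjusted p = 0.045), a level 2.68-fold lower in KD. In separate voom fits on recovered reads, the limma adjusted p was 0.047 with implied library sizes. With total library sizes it was 0.050, just over the threshold. Psph lies on chromosome 5 from 129765558 to 129787449 and overlaps Cct6a on the opposite strand by 452 bases. Whether reads were counted by strand is not given in the sources used here, so reads in that stretch cannot be assigned. Cct6a, a chaperonin subunit, averaged 53.9 ± 5.25 FPKM in KD and 108 ± 49.1 FPKM in PLKO (SD, n = 3 each; log2 difference -0.91, limma adjusted p = 0.096, 0.021 with the block).

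Shmt1, the cytosolic serine hydroxymethyltransferase, differed least clearly of the cytosolic pair. It had 13.3, 13.4 and 18.1 FPKM in KD 1, 2 and 3, against 17.9, 24.9 and 22.3 FPKM in PLKO 1, 2 and 3. KD 3 lay just above PLKO 1, so the groups overlapped (log2 difference -0.54, SE 0.22, limma adjusted p = 0.16, 0.099 with the block). Its 3' end, on chromosome 11 (60788104 to 60811718), overlaps Smcr8 on the opposite strand by 184 bases. Smcr8, a partner of C9orf72 in autophagy, rose in KD (log2 difference 1.32, limma adjusted p = 0.036), with 18.7 ± 3.99 FPKM in KD and 7.47 ± 1.09 FPKM in PLKO (SD, n = 3 each), and its share of the reads counted for Shmt1 was not tested.

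Mthfd1, the cytosolic trifunctional enzyme that charges folate with formate, was the more steady of the pair in PLKO. It had 11.1, 13.2 and 17.8 FPKM in KD 1, 2 and 3, against 25.4, 27.0 and 26.6 FPKM in PLKO 1, 2 and 3. All KD libraries lay below all PLKO libraries, with KD 3 nearest to them, as it also was for Shmt1. The log2 difference was -0.94 (SE 0.22, 95% interval -1.44 to -0.43), with a limma adjusted p of 0.058, 0.015 with the block and 0.018 without KD 3. The gene lies on chromosome 12 from 76255298 to 76319803 and has 29 exon blocks.

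Shmt2, the mitochondrial hydroxymethyltransferase, fell to nearly the same level in every KD library. It had 42.0, 36.3 and 35.6 FPKM in KD 1, 2 and 3, against 104, 115 and 73.3 FPKM in PLKO 1, 2 and 3. The spread on the log2 scale was 0.13 in KD and 0.34 in PLKO (SD, n = 3 each), with PLKO 3 the lowest control. The log2 difference was -1.34 (SE 0.22, 95% interval -1.85 to -0.83, limma adjusted p = 0.032), a level 2.53-fold lower in KD, on 1787 to 2016 reads in KD and 3607 to 5992 in PLKO. It lies on chromosome 10 from 127517123 to 127522444. The next gene on the same strand, 3028 bases away, is Nxph4, a secreted neurexophilin, singled out here after its values were seen. Nxph4 also fell, to 1.5, 2.22 and 3.68 FPKM in KD 1, 2 and 3, against 10.1, 12.7 and 11.1 FPKM in PLKO 1, 2 and 3 (log2 difference -2.28, limma adjusted p = 0.029).

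Mthfd2, the mitochondrial dehydrogenase and cyclohydrolase, varied more between libraries than between groups. It had 56.3, 35.0 and 19.5 FPKM in KD 1, 2 and 3, against 73.2, 36.6 and 47.0 FPKM in PLKO 1, 2 and 3. KD 1 was higher than PLKO 2 and PLKO 3, and the log2 difference of -0.57 had an interval from -1.47 to 0.32 (SE 0.40, limma adjusted p = 0.37). Without KD 1 it was -0.94 and without KD 3 it was -0.18 (limma adjusted p = 0.25 and 0.74). Its sister gene Mthfd2l, which encodes a second mitochondrial dehydrogenase, had 7.15, 6.73 and 4.55 FPKM in KD and 3.81, 4.19 and 4.85 FPKM in PLKO (libraries 1, 2 and 3 of each; log2 difference 0.50, limma adjusted p = 0.23). Mthfd2 thus made up 88.7%, 83.9% and 81.0% of the summed FPKM of both genes in KD 1, 2 and 3. In PLKO 1, 2 and 3 it made up 95.1%, 89.7% and 90.7%, with KD 1 just under PLKO 2. Among all tested genes, the groups did not overlap for 18.8% (KD lower) and 13.4% (KD higher). Mthfd2l was chosen after its values were seen, so nothing is read from this separation. Mthfd2 lies on chromosome 6 from 83305691 to 83325908.

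Mthfd1l, the mitochondrial formate-releasing synthetase, had the smallest difference of the 9. It had 24.0, 25.4 and 24.8 FPKM in KD 1, 2 and 3, against 28.1, 33.1 and 23.9 FPKM in PLKO 1, 2 and 3. PLKO 3 lay below all 3 KD libraries. The log2 difference was -0.19 (SE 0.20, limma adjusted p = 0.57), with an interval from -0.64 to 0.27. It leaves out the point estimates of Shmt2, Aldh1l2, Psph, Mthfd1 and, narrowly, Psat1 (-0.67), but not a fall of up to 0.64. The intervals of Mthfd1 (-1.44 to -0.43) and Psat1 (-1.11 to -0.24) overlap that of Mthfd1l. The gene lies on chromosome 10 from 3973118 to 4167081 with 30 exon blocks, the most of the 9.

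Aldh1l2, the mitochondrial formyltetrahydrofolate dehydrogenase, had the largest fall of the 9. It had 3.31, 2.67 and 7.07 FPKM in KD 1, 2 and 3, against 20.6, 33.6 and 16.2 FPKM in PLKO 1, 2 and 3. The libraries numbered 3 lay nearest to each other, yet KD 3 was still below every PLKO library. The log2 difference was -2.50 (SE 0.40, 95% interval -3.40 to -1.60, limma adjusted p = 0.031), a level 5.64-fold lower in KD, on 316 to 929 reads in KD and 1928 to 4208 in PLKO. It lies on chromosome 10 from 83487450 to 83534140. It shares 1056 bases with D10Wsu102e on the opposite strand, which has an annotated exonic length of 123179 bases and averaged 1.24 ± 0.103 FPKM in KD and 0.978 ± 0.212 FPKM in PLKO (SD, n = 3 each). Over that length D10Wsu102e had 2260 to 2929 reads in KD and 1808 to 2380 in PLKO. Reads in the shared stretch cannot be assigned, as for Psph. Aldh1l1, the cytosolic counterpart, averaged 0.494 FPKM over the 6 libraries and was not tested.

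**Figure D2:**
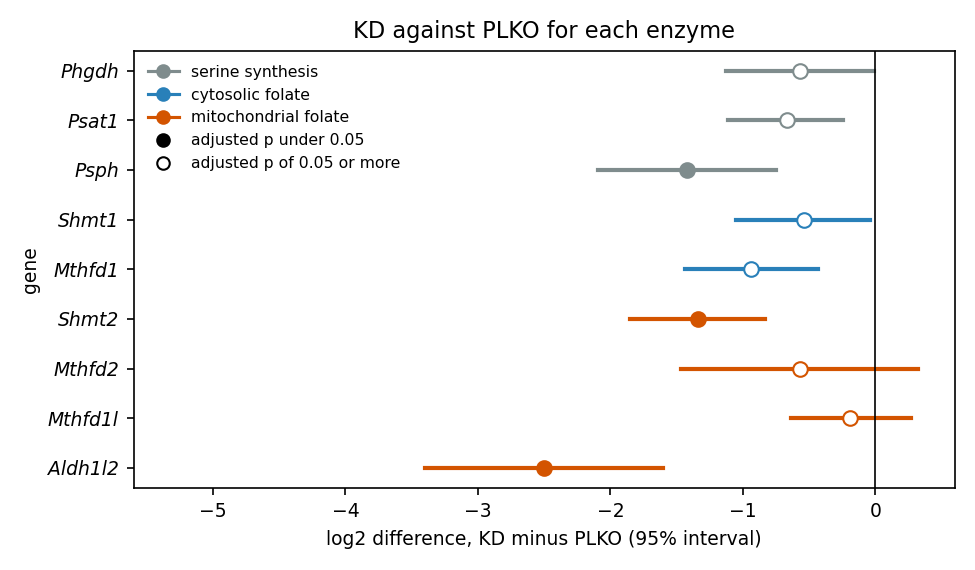
Log2 difference, KD minus PLKO, of each enzyme with its 95% interval from the limma fit on 3 libraries a group, coloured by branch; filled points have an adjusted p under 0.05. Psph, Shmt2 and Aldh1l2 are filled at -1.42, -1.34 and -2.50, and the intervals of Mthfd2 and Mthfd1l span 0.

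The 5 most abundant enzymes stood in the same order in both groups, and the 4 below them did not. In KD, Phgdh was followed by Psat1, Shmt2, Mthfd2, Mthfd1l, Shmt1, Mthfd1, Psph and Aldh1l2, and the ranges over libraries overlapped for the neighbours Shmt2 and Mthfd2, Mthfd2 and Mthfd1l, Shmt1 and Mthfd1, and Psph and Aldh1l2. In PLKO the order was Phgdh, Psat1, Shmt2, Mthfd2, Mthfd1l, Mthfd1, Aldh1l2, Shmt1 and Psph. Psat1 overlapped Shmt2 there, and so did all neighbours from Mthfd1l down, so the order of the 5 lowest enzymes in PLKO is not fixed by these libraries. Aldh1l2 averaged 4.35 ± 2.38 FPKM in KD, at the bottom, and 23.5 ± 9.0 FPKM in PLKO, level with Mthfd1 and Shmt1 (SD, n = 3 each).

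The 2 compartments did not differ in a single direction. The gap between Shmt2 and Shmt1, as log2 FPKM of the mitochondrial minus the cytosolic gene, was 1.66, 1.44 and 0.98 in KD 1, 2 and 3, against 2.53, 2.21 and 1.71 in PLKO 1, 2 and 3. It averaged 1.36 ± 0.35 in KD and 2.15 ± 0.41 in PLKO (SD, n = 3 each), a difference of -0.79 in favour of the cytosolic gene. KD 1 lay just under PLKO 3, and all KD gaps lay below all PLKO gaps. Shmt2 made up 76.0%, 73.0% and 66.3% of the summed SHMT FPKM in KD 1, 2 and 3, against 85.3%, 82.2% and 76.6% in PLKO 1, 2 and 3.

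The formate-handling pair went the other way. The gap between Mthfd1l and Mthfd1 was 1.11, 0.95 and 0.48 in KD 1, 2 and 3, against 0.15, 0.29 and -0.15 in PLKO 1, 2 and 3. It averaged 0.84 ± 0.33 in KD and 0.09 ± 0.23 in PLKO (SD, n = 3 each), a difference of 0.75 in favour of the mitochondrial gene. Most of it lay in Mthfd1, at -0.94, while Mthfd1l was at -0.19 (limma adjusted p = 0.058 and 0.57). The partners were about equal in PLKO, and in KD Mthfd1l made up 64.1% ± 5.26 of their summed FPKM, against 51.6% ± 3.92 in PLKO (SD, n = 3 each). The third pair, Mthfd2 with Mthfd1, shares Mthfd1 with the second, so they are not separate readings. Its gaps were 2.34, 1.41 and 0.13 in KD 1, 2 and 3, against 1.53, 0.44 and 0.82 in PLKO 1, 2 and 3. These overlapped widely (difference 0.36), and without KD 1 the sign turned (-0.16).

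With 3 libraries a group, the smallest p that the exact two-sided permutation test allows is 0.1. That exact permutation test gave p = 0.1 for the gaps of Shmt2 with Shmt1 and of Mthfd1l with Mthfd1 and p = 0.7 for Mthfd2 with Mthfd1, so no gap could pass 0.05. A p of 0.1 here says only that the groups did not overlap. Single tested genes did not overlap in 18.8% (KD lower) and 13.4% (KD higher) of cases. The result of Shmt2 was known when the list was drawn, so its gap is a description. Taken within libraries of the same number, the gap of Shmt2 with Shmt1 differed by -0.87, -0.77 and -0.74 between KD and PLKO 1, 2 and 3, and that of Mthfd1l with Mthfd1 by 0.96, 0.65 and 0.63. For these pairs the differences between same-numbered libraries were closer together than the gaps themselves. For Mthfd2 with Mthfd1 they were 0.81, 0.97 and -0.69, further apart than the PLKO gaps of that pair. The pairing was taken from these same data, so nothing is read from the closeness.

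**Figure D3:**
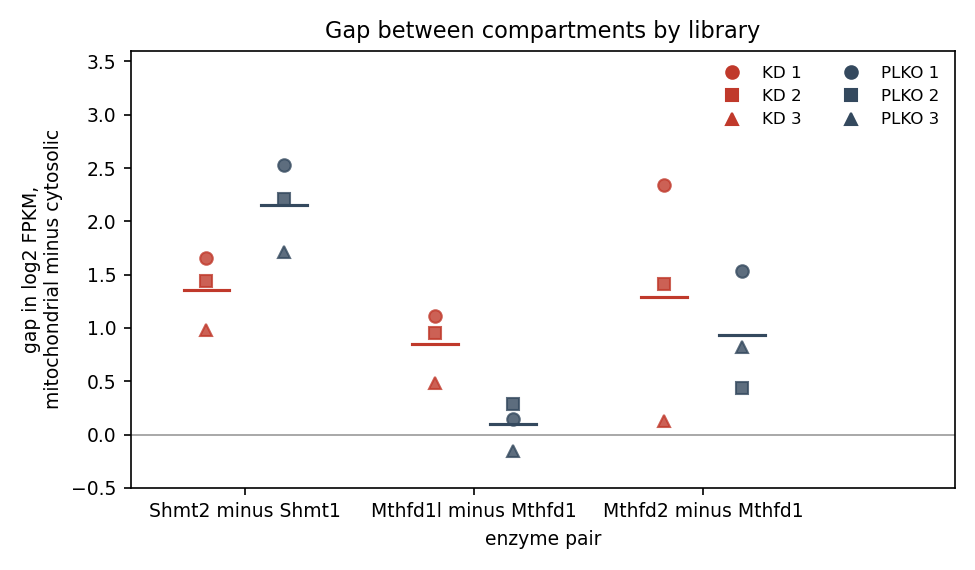
Gap in log2 FPKM between the mitochondrial and the cytosolic gene of 3 enzyme pairs in each library, with KD in red left of PLKO in dark blue; bars are means of 3 libraries and the grey line marks equal levels. The gap of Shmt2 with Shmt1 averages 1.36 in KD and 2.15 in PLKO, that of Mthfd1l with Mthfd1 averages 0.84 in KD and 0.09 in PLKO, and the third pair overlaps.

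Within the mitochondrial branch the 4 genes did not move as a block. Their log2 differences ran from -2.50 (Aldh1l2) to -0.19 (Mthfd1l). Those of serine synthesis ran from -1.42 to -0.57 and those of the cytosolic pair from -0.94 to -0.54. A range grows with the number of genes, which differs between the branches, so the widths are not ranked. Summed FPKM came to 126, 99.4 and 86.9 for the mitochondrial genes in KD 1, 2 and 3, against 226, 219 and 161 in PLKO 1, 2 and 3. For the cytosolic pair they came to 24.4, 26.6 and 35.8 in KD 1, 2 and 3, against 43.3, 51.9 and 49.0 in PLKO 1, 2 and 3, and for serine synthesis to 404, 362 and 291 in KD, against 537, 644 and 452 in PLKO. KD libraries lay below PLKO libraries for each of the 3 sums, as they did for 18.8% of single tested genes. The sums lean on abundant genes such as Phgdh and Shmt2. They do not show a fall of every gene in a branch, since the groups overlapped for Shmt1, Mthfd2 and Mthfd1l. Within the KD group, KD 3 was the lowest library for Phgdh, Psat1, Psph, Shmt2 and Mthfd2, and the highest for Shmt1, Mthfd1 and Aldh1l2.

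**Figure D4:**
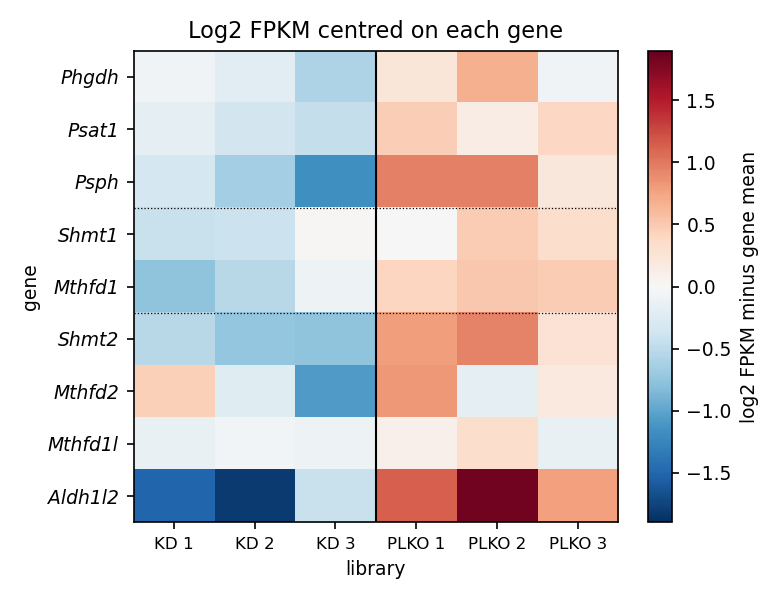
Log2 FPKM of each enzyme in each library minus that gene's mean over the 6 libraries, with KD columns left of PLKO columns and dotted lines between serine synthesis, cytosolic and mitochondrial folate genes. Aldh1l2 spans the widest range, from -1.82 in KD 2 to 1.83 in PLKO 2, and Mthfd2 is above its mean in KD 1 (0.45).

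Among all other tested genes, predicted ones left out, those nearest to the mean profile of the 4 mitochondrial enzymes were picked by the root mean square distance of centred log2 values over the 6 libraries. They were Timmdc1 (distance 0.056), an assembly factor of respiratory complex I, Iars (0.062), the cytosolic isoleucyl-tRNA synthetase, Yaf2 (0.082), a partner of YY1 in polycomb complexes, Bbs4 (0.10), a protein of the BBSome of cilia, and Gfm2 (0.11), a mitochondrial ribosome recycling factor. Of the 4 enzymes themselves Shmt2 was nearest to their mean at 0.12, and Mthfd1l, Mthfd2 and Aldh1l2 were at 0.50, 0.59 and 0.82. Timmdc1 averaged 7.18 ± 0.832 FPKM in KD and 17.2 ± 3.11 FPKM in PLKO (SD, n = 3 each). Iars averaged 28.6 ± 4.76 FPKM in KD and 63.4 ± 9.09 FPKM in PLKO. The likeness is over 6 libraries among 10770 genes and was chosen on the same values.

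Outside the 9 enzymes, 45 further genes of serine and folate metabolism were listed by role, of which 35 are in the table and 32 were tested. None was called over all genes (limma; 10 of 32 had an unadjusted p under 0.05, against 27.6% of all tested genes), and with the block 5 were called lower and 1 higher, against 11.1% and 8.19% of all tested genes. Their median log2 difference was -0.31, against -0.04 over all tested genes. Of the 32, 26 were below 0, against 52.3% of all tested genes. KD libraries all lay below PLKO libraries for 8 of them and all above for 1, against 18.8% and 13.4% of all tested genes. The lists were chosen with earlier results of these data known, so nothing is read from these counts or from those per list below.

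Transporters came nearest to the threshold, with 7 of 8 below 0 and a median of -0.74. Slc1a4, a neutral amino acid exchanger that carries serine, had 20.5, 15.3 and 16.4 FPKM in KD 1, 2 and 3, against 51.3, 36.8 and 27.1 FPKM in PLKO 1, 2 and 3 (log2 difference -1.10, limma adjusted p = 0.058, 0.0077 with the block). Sfxn1, which brings serine into mitochondria, had 6.41, 7.87 and 10.6 FPKM in KD 1, 2 and 3, against 15.2, 16.8 and 15.3 FPKM in PLKO 1, 2 and 3 (-0.96, adjusted p = 0.059 by limma, 0.015 with the block). The groups did not overlap for either of them. Slc25a32, the mitochondrial folate carrier, was at 0.11 (limma adjusted p = 0.78).

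Of 6 other tested mitochondrial folate genes 5 were below 0, with a median of -0.20. Sardh, the sarcosine dehydrogenase that also loads folate, had 4.77, 6.37 and 10.7 FPKM in KD 1, 2 and 3, against 13.1, 14.6 and 18.9 FPKM in PLKO 1, 2 and 3 (log2 difference -1.16, limma adjusted p = 0.066, 0.0067 with the block). Dld, a subunit shared by the glycine cleavage system and other dehydrogenases, was at -0.51 (limma adjusted p = 0.20). Of 7 other cytosolic folate genes, 5 were below 0 with a median of -0.12 and none was called with the block. Fpgs, which adds glutamates to folate, and Atic, which ends purine synthesis, were at -0.60 and -0.38 (limma adjusted p = 0.19 and 0.26), and thymidylate synthase Tyms was at -0.12 (0.82).

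The methionine cycle had 6 of 7 genes below 0, with a median of -0.17. Mat2a, which makes S-adenosylmethionine, had 52.7, 67.8 and 76.0 FPKM in KD 1, 2 and 3, against 125, 115 and 70.8 FPKM in PLKO 1, 2 and 3, with KD 3 above PLKO 3 (log2 difference -0.63, limma adjusted p = 0.16). Cbs, the first enzyme of transsulfuration, was at -1.31 on 78 to 263 reads in PLKO (limma adjusted p = 0.20, 0.027 with the block). Of 4 genes that use serine, Srr, the serine racemase, was at -0.63, and Sptlc2, a subunit of the first enzyme of sphingolipid synthesis, at 0.83 (limma adjusted p = 0.15 and 0.10). Sptlc2 had 19.1, 20.4 and 13.6 FPKM in KD 1, 2 and 3, against 11.6, 6.86 and 11.8 FPKM in PLKO 1, 2 and 3, and was the 1 gene of these lists called higher with the block (limma adjusted p = 0.043).

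**Figure D5:**
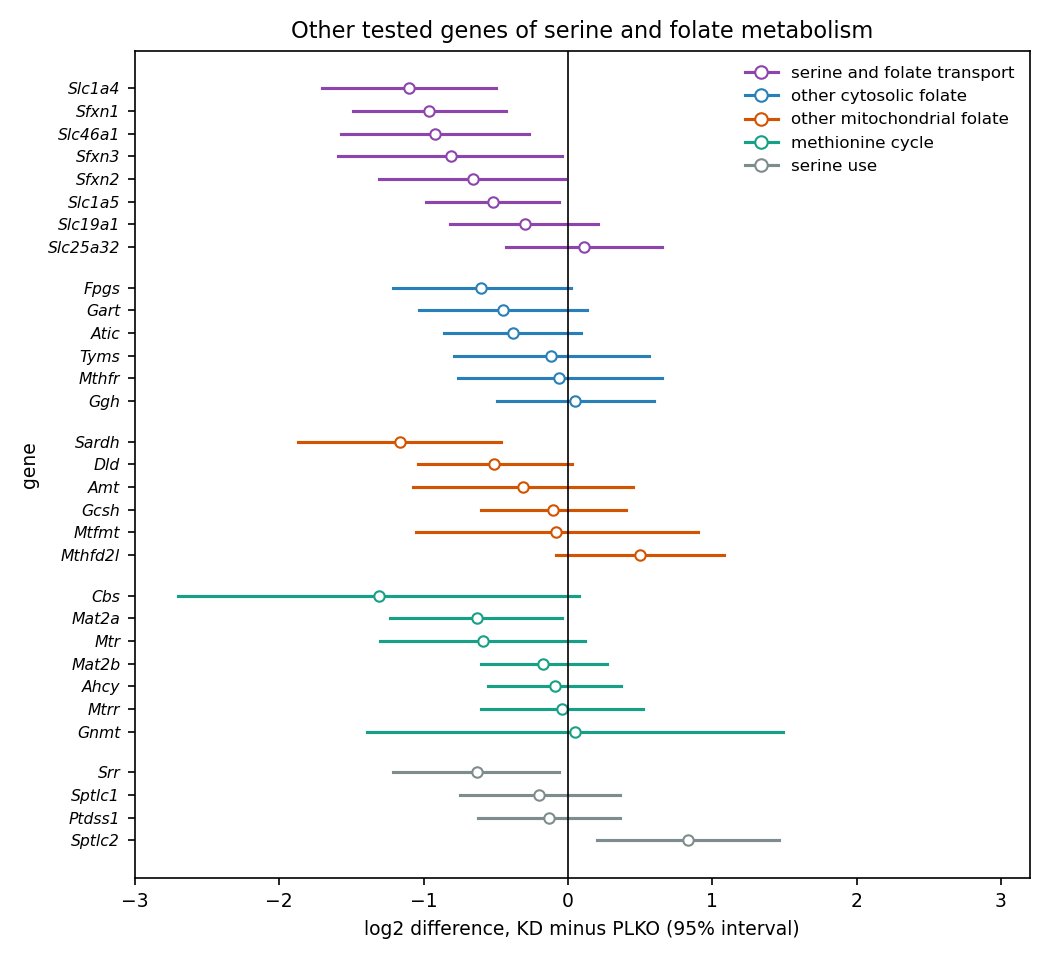
Log2 difference, KD minus PLKO, with 95% interval from the limma fit, for 31 of the 32 tested genes of serine and folate metabolism outside the 9 enzymes, coloured by list. None of those plotted has an adjusted p under 0.05, and Slc1a4, Sfxn1 and Sardh lie at -1.10, -0.96 and -1.16.

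Neither of the known regulators was called at the RNA level in the fit across all genes. The values below are of RNA and do not give the level or activity of the proteins. The line comes from MYC transgenic mice, and whether the Myc row holds reads of the transgene was not tested. Atf4 had 185, 148 and 139 FPKM in KD 1, 2 and 3, against 255, 242 and 132 FPKM in PLKO 1, 2 and 3. PLKO 3 was below every KD library, and the log2 difference was -0.37 (interval -1.0 to 0.27, limma adjusted p = 0.42), between -0.67 without PLKO 3 and -0.20 without PLKO 1. Myc had 9.88, 12.2 and 30.6 FPKM in KD 1, 2 and 3, against 32.0, 87.5 and 19.1 FPKM in PLKO 1, 2 and 3 (log2 difference -1.29, limma adjusted p = 0.18). The Myc groups overlapped through KD 3 and PLKO 3. Without both of these libraries Myc was called lower (-2.27, limma adjusted p = 0.0067), and without PLKO 2, the highest library, its difference was -0.68 (0.43). The difference thus depended on which libraries were kept, and the part of either regulator in the levels of the enzymes was not tested.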

How the data were processed

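The authors deposited 1 table of log2 FPKM for 11866 genes in 6 libraries (poly(A) capture, per the labels' protocols). GRCm38 and FastQC 0.11.7 come from the submitters' processing notes. For the aligner, the counter, the strand setting and the gene filter, the sources used here give nothing. The log2 scale was read from the values (-7.85 to 13.17). Their steps gave whole reads for 100% of genes (tolerance 0.01 reads), with a prior averaging 2.0 reads per library, which understates fold changes of low genes. Exonic lengths came from GENCODE M21, or from a scan of lengths for 904 genes.

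The deposited log2 values of the 10770 genes with a mean of at least 1 FPKM were fitted by group with limma 3.58.1 (R 4.3.3, mean-variance trend, 4 residual degrees of freedom) and adjusted by Benjamini-Hochberg over all of them, with calls under 0.05. FPKM are powers of 2 of these values, given per library or as mean ± SD. The scripts were tested on simulated data. Each enzyme had 13 alternatives: the replicate block, log2(FPKM + 1), no filter, median centring, voom on recovered reads with 2 library sizes, and 7 with libraries left out.

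Same-numbered libraries deviated together over genes (correlations 0.18, 0.29 and 0.50, all above the limit of 0.1). The numbers were therefore taken as pairs in the replicate block and in the gap differences within the same number. The main fit used the group only. This comes from the data, and KD 1 correlated more with PLKO 2 (0.30) than with PLKO 1. Deviations sum to 0 within a group, so the likeness of KD 3 and PLKO 3 alone can raise the other correlations, and the block rests on an assumed pairing.

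Enzymes and lists were chosen with earlier results of these data known. Named are all 9 enzymes, Sf3b3, Myc and Atf4, the 2 genes of each metabolic list with the lowest p (none being called), and the 5 genes nearest in profile. Others named (Mthfd2l, Slc25a32, Tyms, Aldh1l1, marker genes and genes beside or overlapping the enzymes) fall outside that rule and were chosen after their values were seen. A comparison of the proteins was not run, and 1 gene of the lists is counted but not reported here by name. Promoters are from RefSeq (GRCm38.p6), gene positions from GENCODE M21 (GRCm38).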

Additional observations from a re-analysis of the deposited data

How the results depend on the processing

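All 9 enzymes were lower in KD under every one of the 13 alternatives. Of 117 values over enzymes and alternatives, 100 kept their side of the threshold, 13 lost a call and 4 gained one. The replicate block, a fit that takes same-numbered libraries as pairs, called 2080 genes (882 higher, 1198 lower) and 5 enzymes. Leaving out 1 library gave 0 to 1744 calls (0 to 733 higher, 0 to 1011 lower) and 0 to 4 enzymes: without PLKO 1, PLKO 2, KD 1 or KD 2 none, without PLKO 3 801 genes and 3 enzymes, without KD 3 1744 genes and 4 enzymes. Without both libraries numbered 3, 3009 genes were called (1286 higher, 1723 lower) and 4 enzymes. Voom on recovered reads called 308 genes, and 220 with total library sizes (124 lower), where Psph lost its call. The gap of Mthfd2 with Mthfd1 ran from -0.16 (without KD 1) to 0.94 with 1 library left out, and was 0.89 without both libraries numbered 3. Those of Shmt2 with Shmt1 and of Mthfd1l with Mthfd1 kept their sign with 1 library left out, from -1.01 to -0.60 and from 0.62 to 0.93. Taking same-numbered libraries as pairs cannot move a mean gap, so -0.79, 0.75 and 0.36 stand there by construction. Without both libraries numbered 3, Myc, Slc1a4, Sfxn1, Fpgs, Sardh, Mat2a, Cbs, Sptlc2, Mthfd2l, Bbs4 and Gfm2 gained a call. These gains stand beside the 3009 of 10770 tested genes called in that fit. There Tyms turned from below 0 to 0.12. With 1 library left out Tyms ran from -0.37 to 0.17. Sf3b3, Nxph4, Smcr8, Timmdc1, Iars and Yaf2 lost their calls wherever 0 genes were called, and Timmdc1 and Yaf2 also with total library sizes. The cause of these moves was not tested.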
